A study of Homo sapiens with 4 samples.

Results

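The data described here are the mRNA levels of 9 amino acid transporter genes, SLC3A2, SLC7A5, SLC7A11, SLC7A1, SLC1A5, SLC1A4, SLC38A1, SLC38A2 and SLC43A2, in A375 cells, a human melanoma line with an activating BRAF mutation. They were picked by gene symbol, with earlier results of these data known. All 9 of them were present among the 23284 gene rows of each file. MAGE-A1, the protein under study, is a cancer-testis antigen. All 4 groups were A375 cultures stably transfected with a plasmid: the empty pcDNA3 vector (vector library), pcDNA3 carrying MAGE-A1 (overexpression library), pRNAT with a scramble hairpin (scramble library) and pRNAT-shMAGE-A1, which encodes a hairpin to that mRNA (knockdown library). The vector and scramble libraries are the controls of the overexpression and knockdown libraries in that order. Whether each culture was 1 clone or a pool is not given in the sources used here.

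Each group had 1 library, so the differences below have no replicate check and compare libraries, not conditions. The labels' protocols give capture of poly(A) RNA but speak of 2 of the samples. Levels are RPKM, reads scaled to transcript length and library size, which allows genes to be compared per length. A ratio is log2 of (RPKM + 1) in 1 library over (RPKM + 1) in its control, and this understates the change of low genes. A gene is called higher or lower when that ratio is at least 1 in size, which is 2-fold. The estimated depth was 12810000 reads in the overexpression library and 16180000 to 24550000 in the others. In RNA from whole cultures, less RNA per cell and fewer cells carrying it cannot be told apart.

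The targeted gene, MAGEA1, was at 1.80 RPKM with empty vector, 126 with overexpression, 0.767 with scramble and 0.473 with knockdown. From the estimated reads, the knockdown level was 0.615 of the scramble level (95% exact conditional interval 0.285 to 1.29, counting error only). A lower MAGEA1 level than in its own control was thus not detectable at this depth in the library labelled knockdown. The knockdown level was 0.265 of the vector level (0.137 to 0.476), but the scramble control was itself at 0.430 of the vector level (0.244 to 0.725). Wherever a direction with knockdown is given below, it refers to the library so labelled. Of the melanocyte lineage markers, SOX10 was at 281 to 336 RPKM in the 4 libraries and MITF at 7.17 to 11.4, while the pigment cell genes MLANA (0.154 to 0.705) and TYR (0 to 0.0847) were nearly absent, and the pigment enzyme DCT was at 3.61, 2.15, 8.16 and 1.14 with vector, MAGE-A1, scramble and hairpin. Of 9 such markers 5 reached 1 RPKM in each pair. With overexpression 2 were lower and 0 higher, and with knockdown 1 was lower, DCT, and 0 higher. The 2 lower with overexpression were S100B (88.8 RPKM with vector and 17.4 with overexpression) and S100A1 (66.3 and 26.4). The 4 leukocyte markers summed to at most 0.894 RPKM in any library. Small RNA genes took 87.3% and 78.2% of the summed RPKM in the overexpression and knockdown libraries, against 46.6% and 29.6% in the vector and scramble libraries, and the part of this difference in the ratios below was not tested.

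Cells import amino acids through carriers of several families that differ in substrate and in driving force. Sodium-coupled carriers such as SLC38A1 and SLC38A2 load the cell with small neutral amino acids, above all glutamine and alanine. Obligate exchangers such as SLC1A5, SLC7A5 and SLC7A11 then swap internal amino acids for external ones. SLC7A5 and SLC7A11 are light chains that reach the cell surface only when joined by a disulfide bond to the heavy chain SLC3A2. Leucine brought in this way feeds the mTORC1 growth pathway and cystine feeds glutathione synthesis. When amino acids run short or proteins misfold, eIF2 alpha is phosphorylated and the transcription factor ATF4 is translated, which switches on many of these transporter genes through C/EBP-ATF response elements.

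With MAGE-A1 overexpression 7 of the 9 transporter mRNAs were higher and 0 were lower, against 10.6% and 7.28% of the 13577 genes measured in that pair (17.9% past 2-fold either way). The median log2 ratio of the 9 was 1.87, and that of all measured genes was 0.02. Since the 9 were chosen with earlier results of these data known, these values are a description and not a test. With the MAGE-A1 hairpin the transporters split: 2 were higher, SLC3A2 and SLC1A4, and 2 were lower, SLC7A1 and SLC38A2, against 12.4% and 8.52% of 13569 genes (21.0% either way). Their median was 0.36 and that of all genes 0.06. Between the scramble and vector libraries 0 of the 9 passed 2-fold in either direction, where 0.893% and 1.79% of 13326 genes were higher and lower (2.68% either way), and the members' ratios ran from -0.62 to 0.60. Without small RNA genes, of which the members are none, 1097 genes were higher and 920 lower of 13127 with overexpression, 1320 and 1120 of 13146 with knockdown, and 77 and 33 of 12952 between the controls. All 9 members reached the filter of 1 RPKM in every pair, and each of them was measured in all 4 libraries.

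**Figure D1:**
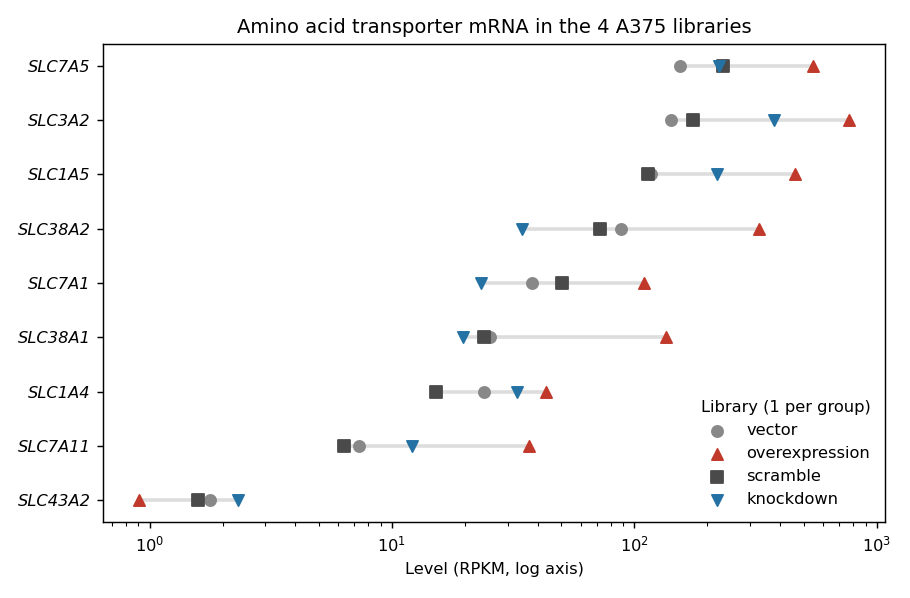
Level of each transporter mRNA in RPKM (log axis) in each of the 4 libraries, 1 per group. For 8 of the 9 genes the overexpression library holds the highest value, from 36.8 RPKM for SLC7A11 to 772 for SLC3A2, and for SLC43A2 it holds the lowest, 0.902.

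The order of abundance per length was much the same in the 4 libraries. SLC7A5, SLC3A2 and SLC1A5 were the leading 3 in each, from 114 to 772 RPKM, followed by SLC38A2, and SLC7A11 and SLC43A2 were always the lowest. SLC3A2 stood first in the overexpression and knockdown libraries, and SLC7A5 stood first in both controls. In the knockdown library SLC7A5 and SLC1A5 were nearly level at 223 and 219 RPKM, and SLC38A2 and SLC1A4 lay close together at 34.4 and 32.9. With 1 library per group the spread of these levels is unknown, so the order of such neighbours is not established. The summed level of the 9 was 597 RPKM with empty vector, 2428 with overexpression, 691 with scramble and 943 with knockdown.

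To show the promoter sequences in which members that were high together can be compared, RefSeq promoter windows (250 bases before to 50 after an annotated start, build GRCh38.p14) were searched on both strands. For 8 of the 9 genes there were 16 windows in all, since 5 of these genes have more than 1 start, and SLC7A11 had no entry. The letters TGATGNAA, the core of the C/EBP-ATF response element, occurred in 5 of the 16 windows, each from a different gene. They were found in 3.62% of all 35116 RefSeq windows and, in at least 1 window, in 4.46% of all 27305 genes and 2.87% of the 9387 matched genes at 1 RPKM or more in at least 1 library. The matches with up to 11 flanking bases are printed 5′ to 3′ in the direction in which the motif reads, and the capitals mark the motif.
SLC3A2: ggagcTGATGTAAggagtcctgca
SLC7A1: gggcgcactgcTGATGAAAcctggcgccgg
SLC38A1: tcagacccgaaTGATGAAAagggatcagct
SLC1A4: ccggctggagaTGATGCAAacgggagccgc
SLC1A5: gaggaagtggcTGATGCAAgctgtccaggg
These lie at chr11:62881725-62881748 (SLC3A2), chr13:29595663-29595692 (SLC7A1), chr12:46266502-46266531 (SLC38A1), chr2:64989381-64989410 (SLC1A4) and chr19:46784893-46784922 (SLC1A5), all on the minus strand. The match of SLC7A1 begins 7 bases after its only start here. SLC3A2, SLC38A1, SLC1A4 and SLC1A5 have more than 1 start, and in each the match lies at 1 of them. In SLC3A2 it begins 37 bases after that start, and in SLC1A5 97 bases before it. In SLC38A1 and SLC1A4 it begins 4 and 7 bases before that start and runs up to or across it. The levels are per gene and do not show which start was used. SLC7A1 and SLC38A1 share the letters TGATGAAA, SLC1A4 and SLC1A5 share TGATGCAA, and SLC3A2 has TGATGTAA. The windows of SLC7A5, SLC38A2 and SLC43A2 hold no such match, which says only that these letters are not in those windows. A match is a description of sequence, and binding was not measured.

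A pair of other motifs was searched in the same way, and neither overlapped a TGATGNAA match or each other in these windows. TGACNNNGC, the core of the antioxidant response element bound by NRF2, occurred in 4 of the 8 genes, SLC3A2, SLC7A1, SLC7A5 and SLC1A5. The shares were 16.1% of all genes and 19.3% of genes at 1 RPKM or more. By window it occurred in 4 of 16, against 13.3% of all windows and 14.3% of those of genes at 1 RPKM or more. CACGTG, the E-box, occurred in 2 of the 8 genes, SLC7A5 and SLC1A5, against 8.77% of all genes and 12.7% of genes at 1 RPKM or more. By window it occurred in 2 of 16, against 7.26% of all windows and 9.22% of those of genes at 1 RPKM or more. The gene counts are not adjusted for starts: the members have 16 windows for 8 genes, and genes at 1 RPKM or more have 13818 for 9387. The 250 bases before a start are shown for the 2 most abundant members, the heavy chain and its main light chain, with matches in capitals. SLC3A2 has more than 1 annotated start, and the window shown was picked because it holds a TGACNNNGC match. The other SLC3A2 windows hold none of the motifs searched.
SLC3A2: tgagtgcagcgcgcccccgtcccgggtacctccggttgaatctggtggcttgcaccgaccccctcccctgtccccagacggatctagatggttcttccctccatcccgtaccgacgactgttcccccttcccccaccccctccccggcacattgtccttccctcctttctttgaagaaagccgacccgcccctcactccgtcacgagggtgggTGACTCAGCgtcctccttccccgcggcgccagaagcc
SLC7A5: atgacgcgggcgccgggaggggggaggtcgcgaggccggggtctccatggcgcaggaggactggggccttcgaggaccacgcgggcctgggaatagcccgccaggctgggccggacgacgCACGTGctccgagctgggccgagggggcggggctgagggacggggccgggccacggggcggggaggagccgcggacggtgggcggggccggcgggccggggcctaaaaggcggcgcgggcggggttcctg
The first is chr11:62881449-62881698 (plus strand), with TGACTCAGC beginning 37 bases before the start. The second is chr16:87869508-87869757 (minus strand), with CACGTG beginning 130 bases before the start. A TGACNNNGC match in SLC7A5 begins 2 bases before the start and runs past it, so it is not in the stretch shown.

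SLC3A2 encodes the heavy chain (CD98hc), which carries several light chains to the cell surface (GRCh38 chromosome 11, 62856102 to 62888875, plus strand). Its mRNA was at 142 RPKM with empty vector, 772 with overexpression, 174 with scramble and 377 with knockdown. Both the overexpression and the knockdown library thus lay above both controls, and SLC3A2 was the only member called higher in both pairs, where 3.62% of the 13106 genes measured in both were. The log2 ratios were 2.44 with overexpression, larger than in 97.0% of measured genes, and 1.11 with knockdown, larger than in 90.0%. From the estimated reads the overexpression level was 5.45 times the vector level (95% exact conditional interval 5.30 to 5.60), and the knockdown level was 2.16 times the scramble level (2.10 to 2.23). All such intervals here cover counting error only and not the spread between cultures.

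SLC7A5 (LAT1) exchanges large neutral amino acids such as leucine for internal glutamine (chromosome 16, 87830023 to 87869488, minus strand). It was at 154, 543, 233 and 223 RPKM with vector, MAGE-A1, scramble and hairpin respectively. Overexpression was far above the other 3 libraries, with a log2 ratio of 1.81 and a read ratio of 3.53 (3.46 to 3.60). Scramble and knockdown lay close together, at a log2 ratio of -0.07. The scramble library was itself above the vector library by 0.60, the largest control difference upward among the 9, and against the scramble library the overexpression read ratio was 2.33 (2.29 to 2.38).

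SLC7A11 (xCT), the cystine and glutamate exchanger, brings in the cystine used for glutathione (chromosome 4, 138164097 to 138242349, minus strand). It was low in the controls, at 7.29 RPKM with vector and 6.36 with scramble, and stood at 36.8 with overexpression and 12.1 with knockdown. As for SLC3A2, both the overexpression and the knockdown library were above both controls. The log2 ratio was 2.19 with overexpression, a read ratio of 5.05 (4.77 to 5.34). With knockdown the log2 ratio was 0.83, under 2-fold, and the read ratio was 1.90 (1.76 to 2.05).

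The balance of heavy to light chain mRNA was compared within each library, where scaling between libraries plays no part. Known partners of SLC3A2 are SLC7A5, SLC7A6, SLC7A7, SLC7A8, SLC7A10 and SLC7A11, and the levels of these 6 were summed. SLC3A2 was at 0.770 of the summed light chains in the vector library and 0.675 in the scramble library. It was at 1.29 of them in the overexpression library and 1.51 in the knockdown library, so that the heavy chain mRNA exceeded the light chains with overexpression and with knockdown and in neither control. With the trend of the knockdown ratio on transcript length and GC content removed, an alternative chosen after seeing the data, the knockdown value was 1.13. SLC7A5 made up 83.7% to 91.1% of the light chain sum in the 4 libraries. SLC7A11 made up 3.97% of it with vector and 6.17% with overexpression, and 2.47% and 4.85% in the scramble and knockdown libraries. SLC7A6, the next light chain, was at 21.6, 15.5, 17.4 and 11.6 RPKM and within 2-fold in each pair, and was named after its values were seen.

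**Figure D2:**
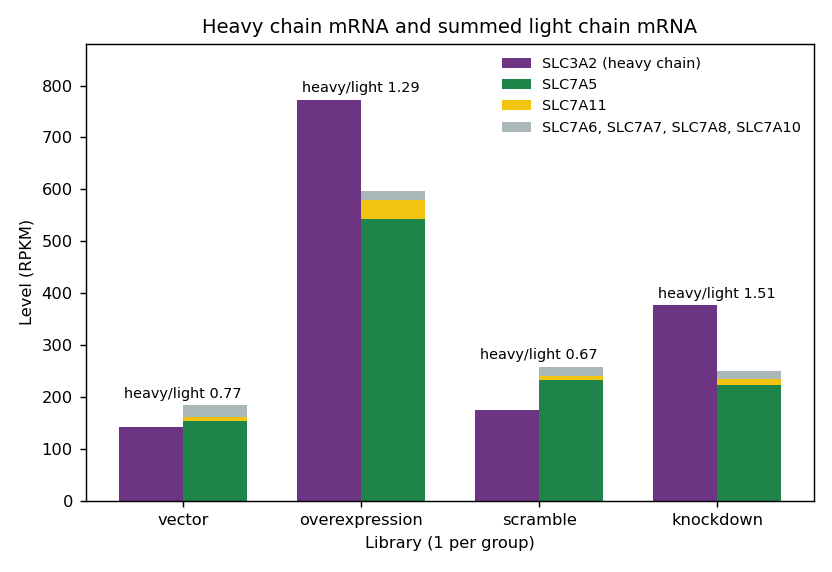
Level in RPKM of the heavy chain SLC3A2 and of 6 light chains stacked, in each library (1 per group, no error bars). The heavy chain bar is the taller in the overexpression library (1.29 times the light chains) and in the knockdown library (1.51), and the shorter in the vector (0.770) and scramble (0.675) libraries.

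SLC7A1 (CAT1) takes up arginine and lysine without a heavy chain (chromosome 13, 29509410 to 29595688, minus strand). It was at 37.9 RPKM with empty vector, 110.1 with overexpression, 50.1 with scramble and 23.3 with knockdown. It was thus highest with overexpression and lowest with knockdown. The log2 ratios were 1.51 and -1.07, and the read ratios were 2.90 (2.82 to 3.00) and 0.466 (0.446 to 0.486). Against the vector library in place of the scramble library the knockdown read ratio was 0.616 (0.590 to 0.642), which is within 2-fold.

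SLC1A5 (ASCT2) exchanges glutamine and other neutral amino acids with sodium (chromosome 19, 46774883 to 46788594, minus strand). Its level was 117 RPKM with vector and 114 with scramble, 461 with overexpression and 219 with knockdown. The controls were nearly equal, at a log2 ratio of -0.03, and both the overexpression and the knockdown library were above them. The log2 ratio was 1.97 with overexpression, a read ratio of 3.95 (3.84 to 4.06). The knockdown ratio of 0.93 missed 2-fold, with a read ratio of 1.92 (1.85 to 1.98).

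SLC1A4 (ASCT1), which carries alanine, serine and cysteine, is the closest relative of SLC1A5 among the 9 (chromosome 2, 64988477 to 65023865, plus strand). It was at 23.9, 43.1, 15.2 and 32.9 RPKM with vector, MAGE-A1, scramble and hairpin respectively. Both the overexpression and the knockdown library were again above both controls, but the controls differed by more than for any other member, with scramble 0.62 below vector on the log2 scale. The overexpression ratio was 0.82 against the vector library and 1.45 against the scramble library, so the choice of control sets on which side of 2-fold it falls. The knockdown ratio was 1.07 against the scramble library and 0.44 against the vector library. SLC1A5 mRNA exceeded SLC1A4 mRNA by 4.88 times with vector and 10.7 times with overexpression, and by 7.52 and 6.65 times in the scramble and knockdown libraries.

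SLC38A2 (SNAT2) takes up glutamine, alanine and serine with sodium and is a classic gene of adaptation to amino acid shortage (chromosome 12, 46358189 to 46372867, minus strand). It was at 88.5 RPKM with empty vector, 326 with overexpression, 72.5 with scramble and 34.4 with knockdown. Its highest level was 9.47 times its lowest, the widest range of the 9. The log2 ratios were 1.87 and -1.05, with read ratios of 3.68 (3.60 to 3.77) and 0.475 (0.454 to 0.496). SLC7A1 and SLC38A2 were the 2 members called higher with overexpression and lower with knockdown, as were 0.969% of the genes measured in both pairs.

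SLC38A1 (SNAT1), the neighbouring gene with similar substrates (chromosome 12, 46183063 to 46270017, minus strand), was at 25.5, 135, 24.1 and 19.7 RPKM with vector, MAGE-A1, scramble and hairpin respectively. The overexpression library stood alone above the other 3. The log2 ratios were 2.36 with overexpression, next to that of SLC3A2 in size, and -0.28 with knockdown. The read ratios were 5.29 (5.12 to 5.46) and 0.818 (0.778 to 0.860).

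The 3 main glutamine carriers, SLC1A5, SLC38A1 and SLC38A2, summed to 231 RPKM with empty vector, 922 with overexpression, 211 with scramble and 273 with knockdown. In the first 3 of these SLC1A5 stood at 1.02, 1.00 and 1.18 times the sum of SLC38A1 and SLC38A2. Between the loaders, SLC38A2 stood at 3.48, 2.42, 3.01 and 1.75 times SLC38A1 in the vector, overexpression, scramble and knockdown cultures. In the knockdown library SLC1A5 stood at 4.04 times the sum of SLC38A1 and SLC38A2. With the length and GC trend removed from each level, also chosen after seeing the data, SLC1A5 stood at 2.15 times that sum. In that library the exchanger SLC1A5 stood above its control, though within 2-fold, and of the sodium-coupled loaders SLC38A2 was lower and SLC38A1 within 2-fold.

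SLC43A2 (LAT4), a facilitated carrier of branched-chain amino acids, methionine and phenylalanine, was the rarest of the 9 (chromosome 17, 1569267 to 1628886, minus strand). It was at 1.77, 0.902, 1.59 and 2.33 RPKM with vector, MAGE-A1, scramble and hairpin respectively, from 344, 92, 204 and 358 estimated reads. It alone was lowest with overexpression, where its log2 ratio was -0.54 and its read ratio 0.513 (0.403 to 0.647). With knockdown the log2 ratio was 0.36, and no pair reached 2-fold. Its relative SLC43A1 (LAT3), outside the 9, was at 4.32, 15.7, 4.96 and 13.2 RPKM, with log2 ratios of 1.65 and 1.25, so that SLC43A1 exceeded SLC43A2 by 2.44 times with vector and 17.4 times with overexpression.

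**Figure D3:**
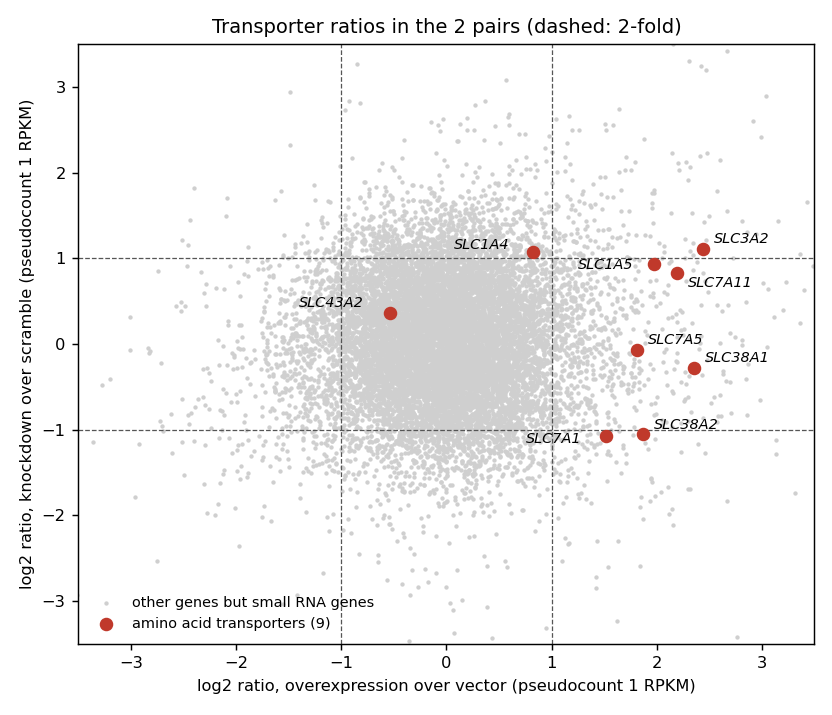
Log2 ratio of overexpression over vector (x axis) against that of knockdown over scramble (y axis), pseudocount 1 RPKM, for the 9 transporters and for other genes but small RNA genes, with dashed lines at 2-fold. Of the 12730 genes, 43 lie beyond the axes at 3.5. On the right, 7 transporters pass 2-fold with overexpression, and on the y axis they spread from -1.07 for SLC7A1 to 1.11 for SLC3A2.

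The 7 calls with overexpression stood under all 8 alternatives of scaling, centring, pseudocount, filter, control and trend, and with the scramble library as control SLC1A4 passed as well. The 4 calls with knockdown were narrow, from 1.05 to 1.11 in size, and each fell within 2-fold under at least 1 alternative. With libraries scaled to a common upper quartile, SLC3A2 stood at 0.9989 and SLC1A4 at 0.9627, both just under 1, and 0 members were higher. That scaling also turned the split of all genes with knockdown from 1688 higher and 1156 lower to 1398 and 1449. Of the 9 members, SLC7A5 and SLC38A1 changed sign with knockdown under some alternatives, and the other 7 kept theirs.

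Transcript length moved with the knockdown ratio across all genes, and its part in the members' ratios was not tested beyond the removal of a fitted trend. The median knockdown ratio was 0.58 for genes of 1000 to 2000 nt, it was 0.12 at 2000 to 4000 nt, -0.35 at 4000 to 8000 nt and -0.60 above 8000 nt. The transporters' transcripts, taken from GENCODE 29, ran from 2222 nt (SLC3A2) to 9645 nt (SLC7A11). SLC7A1 (7347 nt) and SLC38A2 (4888 nt) lay below the quartiles of their length class. SLC7A11, SLC43A2, SLC1A4, SLC1A5 and SLC3A2 lay above those of theirs. With a spline trend on length and GC content removed, SLC7A11 was at 1.55 and SLC1A4 at 1.22, past 2-fold, SLC3A2 at 0.69 and SLC1A5 at 0.57. On that scale SLC7A1 was at -0.73 and SLC38A2 at -0.58, so that 2 members were higher and 0 lower. The overexpression ratios moved little with the same correction, to 1.93 for SLC7A11, 2.58 for SLC3A2 and 1.65 for SLC38A2.

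**Figure D4:**
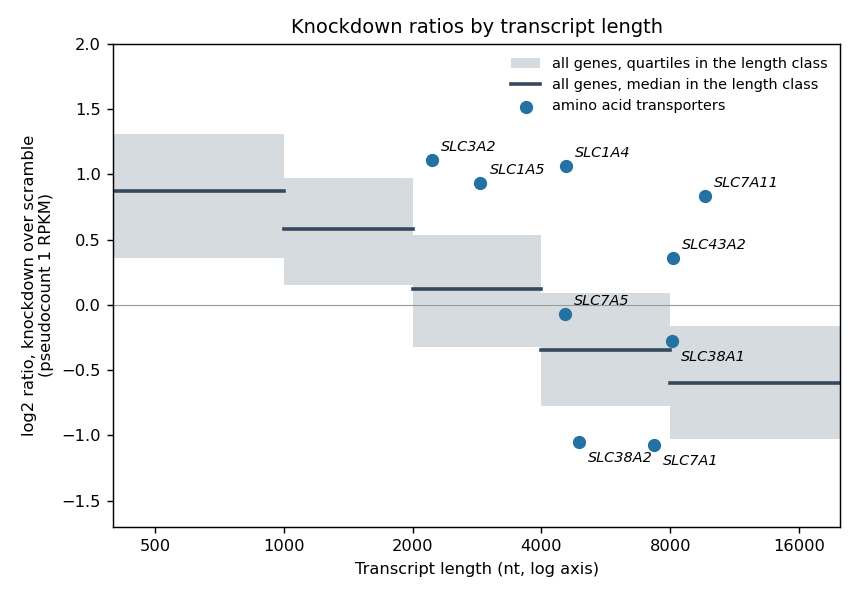
Log2 ratio of knockdown over scramble (pseudocount 1 RPKM) against transcript length in nt (log axis) for the 9 transporters, with the median (line) and quartiles (band) of all genes but small RNA genes in 5 length classes. The class medians run from 0.88 for the shortest to -0.60 for the longest genes, with SLC7A11 at 0.83 far above its class and SLC38A2 at -1.05 below its own.

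The other amino acid transporters were counted by the same rule. For each list below, the shares of all genes are 10.6% higher and 7.28% lower with overexpression, and 12.4% and 8.52% with knockdown. Of 34 other cell surface transporters 10 were measured with overexpression, of which 2 were higher and 3 lower, with a median log2 ratio of -0.38. With knockdown 11 were measured, 2 higher and 2 lower, with a median of -0.05. Beside SLC43A1, the glycine transporter SLC6A9 was higher with overexpression, at 5.57 and 18.8 RPKM. The glutamate transporters SLC1A1 (7.06, 1.65, 6.99 and 2.76 RPKM with vector, MAGE-A1, scramble and hairpin respectively) and SLC1A3 (5.71, 2.01, 2.97 and 0.781) were lower in both pairs, and they belong to the same family as SLC1A4 and SLC1A5. With the length and GC trend removed their knockdown ratios were -0.84 and -0.84, within 2-fold, and that of SLC43A1 was 0.91. The overexpression call of SLC1A3 rests on the control, since scramble lay 0.76 below vector on the log2 scale. Its level of 2.01 RPKM with overexpression was within 2-fold of the 2.97 with scramble. Against the scramble library 3 of this list were higher with overexpression and 1 lower. The taurine transporter SLC6A6 was lower with overexpression (41.9 and 19.4 RPKM) and the light chain SLC7A8 was higher with knockdown (0.604 and 2.51 RPKM), both named after their values were seen. Of 6 lysosomal transporters and 9 measured mitochondrial amino acid carriers 0 passed 2-fold in either pair, with medians of 0.25 and -0.25 with overexpression and 0.36 and -0.18 with knockdown.

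Among 19 eIF2 alpha kinases and transcription factors known to act on transporter genes, 8 were higher and 1 lower with overexpression, with a median log2 ratio of 0.62. DDIT3 (CHOP) was at 32.0 and 622 RPKM, the ATF4 inhibitor TRIB3 at 23.2 and 291, ATF3 at 5.41 and 104, and the stress factor NUPR1 at 0.185 and 23.9. With knockdown 4 were higher and 1 lower, with a median of 0.20: DDIT3 (34.3 and 169 RPKM), TRIB3 (20.9 and 112), NUPR1 (1.20 and 4.01) and ATF4 itself (249 and 534) were higher, and BACH1 was lower (12.7 and 4.58). BACH1 was among the 8 higher with overexpression, at 13.3 and 33.0 RPKM. The ATF4 mRNA was within 2-fold with overexpression, at a log2 ratio of 0.90, and ATF4 was named after its values were seen. The knockdown ratios of DDIT3 (2.27) and TRIB3 (2.36) were larger than those of all 9 transporters, of which SLC3A2 had the largest, 1.11. With the length and GC trend removed 3 of the list were higher and 0 lower with knockdown: DDIT3 (1.68), TRIB3 (1.91) and NUPR1 (1.49) stayed past 2-fold, and ATF4 (0.65) and BACH1 (-0.75) did not.

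Genes that use the imported amino acids were counted by the same rule. Of 9 measured cystine and glutathione enzymes 3 were higher with overexpression, CHAC1, CTH and CBS, and 0 lower. CHAC1, which degrades glutathione, stood at 2.06, 95.1, 3.24 and 34.5 RPKM with vector, MAGE-A1, scramble and hairpin respectively, beside SLC7A11 at 7.29, 36.8, 6.36 and 12.1. With knockdown 3 of 10 were higher, CHAC1, GPX4 (87.7 and 213 RPKM) and narrowly CBS (20.4 and 41.9), and 1 was lower, the peptidase ANPEP (90.6 and 42.3), named after its values were seen. With the trend removed CHAC1 (2.39) and ANPEP (-1.21) stayed past 2-fold, and GPX4 (0.22) and CBS (0.63) did not. The ANPEP call rests on the scramble control. Against the vector library 4 of this list were higher and 0 lower with knockdown, and against the mean of both controls 3 and 0. Of 21 enzymes using glutamine, glutamate, leucine and arginine, 8 were higher and 1 lower with overexpression, with a median of 0.56, among them the asparagine synthetase ASNS (22.2 and 260 RPKM), the polyamine enzyme ODC1 (13.1 and 97.7), the aspartate aminotransferase GOT1 (21.8 and 125) and GFPT1 of hexosamine synthesis (12.6 and 65.8). The lower one was BCKDHB (-1.33), named after its values were seen. With knockdown 1 of 20 was higher, GOT1 (20.7 and 49.2 RPKM), and 2 were lower, the branched-chain aminotransferase BCAT1 (21.4 and 9.34) and GLUD2 (60.5 and 21.4), a near copy of GLUD1 whose reads are uncertain, named after its values were seen. BCAT1 was among the 8 higher with overexpression (20.0 and 82.1 RPKM), and its knockdown call was lost with the trend removed (-0.42).

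Of 32 genes of amino acid sensing by mTORC1, 3 were higher and 3 lower with overexpression (median 0.06), against 10.6% and 7.28% of all genes. With knockdown 4 were higher and 0 lower (median 0.05), against 12.4% and 8.52%. The counts of higher genes were near those shares in both pairs. SESN2, the leucine sensor, was at 10.2, 59.5, 10.5 and 19.4 RPKM, with log2 ratios of 2.44 and 0.82. The other higher genes with overexpression were FLCN (1.46) and RRAGC (1.25), and the lower ones were RRAGB (-1.33), SESN1 (-1.16) and GATSL3 (-1.07). LAMTOR2 (1.68), LAMTOR1 (1.29), RRAGD (1.07) and MLST8 (1.02) were higher with knockdown. That count rests on the setting: upper quartile scaling gave 2 higher and 1 lower, and the trend removal 1 higher, RRAGD (1.497), and 1 lower, DDIT4 (-1.03), with LAMTOR2 at 0.69, LAMTOR1 at 0.65 and MLST8 at 0.30. All of these but SESN2, FLCN, RRAGB and LAMTOR2 were named after their values were seen. Of 6 proteins known to bind or turn over the transporters, NEDD4 and NEDD4L are ubiquitin ligases that act on membrane carriers. They had the same pair of calls as SLC7A1 and SLC38A2, higher with MAGE-A1 and lower with the hairpin. BACH1 and BCAT1 of the lists above had this pair of calls too. NEDD4 was at 11.4, 46.9, 10.8 and 2.98 RPKM and NEDD4L at 14.8, 50.7, 22.0 and 7.78. The deubiquitinase OTUB1 was higher with knockdown (69.9 and 147 RPKM). Removing the length and GC trend ended all 3 knockdown calls of this list, with NEDD4 at -0.94, NEDD4L at -0.79 and OTUB1 at 0.58.

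**Figure D5:**
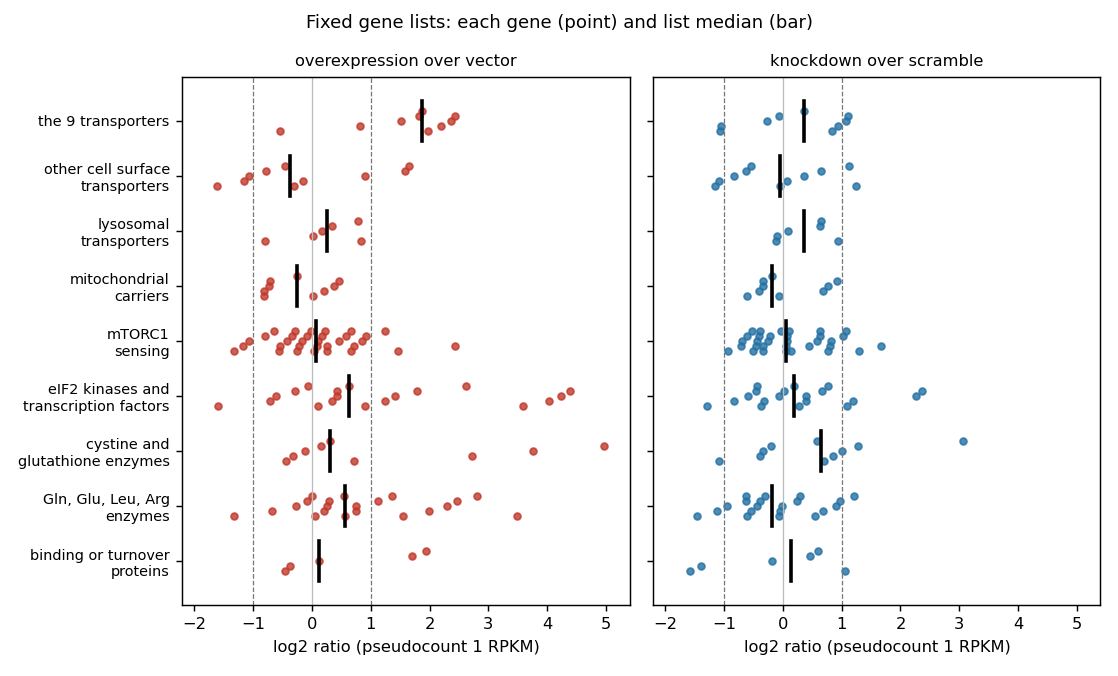
Log2 ratio (pseudocount 1 RPKM) of each measured gene (points) and median (bar) of 9 gene lists, with overexpression on the left and knockdown on the right and dashed lines at 2-fold. The 9 transporters have the highest list median with overexpression, 1.87, while the other cell surface transporters lie at -0.38. Members and lists were chosen with earlier results of these data known, so this order is a description.

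The genes whose pattern over the 4 libraries was nearest to that of the members were found among 10259 genes at 5 RPKM or more in at least 1 library. Nearest to SLC3A2, by Euclidean distance of log2(RPKM + 1) values centred on each gene's mean, were NFKB2 (0.095), SARS (0.15), SNHG15 (0.22), TMEM158 (0.26) and AVPI1 (0.28). Among the other 8 members SLC1A5 (0.40) and SLC7A11 (0.55) were nearest to it, and SLC38A2 (2.10) and SLC43A2 (2.29) the farthest. NFKB2 was at 18.1, 95.9, 20.5 and 47.7 RPKM and the seryl-tRNA synthetase SARS at 70.0, 369, 83.3 and 163. Nearest to the mean pattern of the 9 were ARNTL (0.062), TXNL4B (0.078), PEA15 (0.093), YRDC (0.12) and SERP1 (0.13). The members themselves lay 0.43 (SLC7A5) to 1.85 (SLC43A2) from that mean, farther than each of these 5 genes. With 4 libraries many genes are close to any such pattern, and the distances are a description.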

How the data were processed

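RNA was sequenced from 4 A375 libraries, 1 per group. Per the labels' protocols, which speak of 2 of the samples, RNA was extracted with TRIzol and poly(A) RNA was captured on magnetic beads, and libraries were made with an Ion Total RNA-Seq kit. Tools listed in the submitters' processing notes, with no role or order, are Cufflinks 2.2.0, SAMtools 1.1, TopHat2 2.0.13 and Bowtie2 2.2.4, and the build is hg19. The deposited values are RPKM, per the file headers, 1 per gene symbol. Annotation and strand use were not given in the sources used here, so reads of overlapping or antisense genes cannot be told apart. Log2 ratios used a pseudocount of 1, genes at 1 RPKM or more in either library were measured, and no test was run.

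Depth was estimated from 5226 single-transcript genes: RPKM × (length - 200)/1000 came in steps, and the share of values of about 1 to 5 reads that were whole to within 0.1 was 68.1% to 70.1%, where 20% is the chance share. Member reads and exact conditional (Clopper-Pearson) 95% intervals follow from it, with the longest GENCODE 29 coding transcript as length. Positions are those of GENCODE 29 on GRCh38, not of the build of the files. Lengths were known for 88.9% of genes in the knockdown trend fit. Analyses ran in Python 3.11.15 with NumPy 2.4.6, pandas 2.3.3, SciPy 1.17.1 and scikit-learn 1.9.0, and the code was tested on simulated data.

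The members and lists were chosen with earlier results of these data known. Named were the 9 members, MAGEA1, up to 4 genes of each list by size of ratio, genes past 2-fold in both pairs, and nearest patterns. Of the sensing list, 2 symbols were not matched. Markers of keratinocytes, fibroblasts and endothelium summed to 17.2 to 33.3, 1.55 to 5.99 and 0.773 to 3.37 RPKM. The result of 1 listed transcription factor is not reported here.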

Additional observations from a re-analysis of the deposited data

How the results depend on the processing

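No paired analysis was possible because each group held 1 library. With overexpression the count of higher members was 7 or 8 and that of lower members 0 under all 8 alternatives. The median was 1.76 with upper quartile scaling, 1.92 at a filter of 5 RPKM, 2.01 against the scramble library, 1.99 against the mean of both controls and 1.93 with the length and GC trend removed. With knockdown, 0 members were higher under upper quartile scaling and 1 against the vector library or the mean of both controls, while 1 was lower against each of these controls and 0 with the trend removed. The members past 2-fold were 2 in each of these 4 settings, against 4, and the cause was not tested. The knockdown median was 0.29 with upper quartile scaling, 0.52 with a pseudocount of 0.1, 0.44 against the vector library and 0.57 with the trend removed. Between the controls 0 members passed under any of 6 alternatives, and the median of -0.08 became 0.084 with the trend removed. Over all genes, a pseudocount of 0.1 gave 1603 lower with overexpression (988), 1797 lower with knockdown (1156) and 240 higher between the controls (119). The trend removal left out small RNA genes and genes without a known length. The brackets here give the main counts without small RNA genes, which still hold genes without a known length, so the gene sets differ. It gave 902 higher of 11668 with overexpression (1097 of 13127). With knockdown it gave 623 higher and 581 lower of 11681 (1320 and 1120 of 13146). Between the controls it gave 47 higher and 24 lower of 11523 (77 and 33 of 12952). SLC43A2, at 92 estimated reads with overexpression, is the member whose ratio depth limits most.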
